A study of Mus musculus with 30 samples.

Results

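The change of gene expression between E11.5 and E12.5 was examined in XX germ cells of control mouse embryos, which carried the genotype Ring1+;Rnf2+. The members are 6 of the 30 arrays of the study, chosen by their labels: 3 arrays of control females at E11.5 and 3 of control females at E12.5. All 30 arrays were made from primordial germ cells of embryos on a mixed 129/Sv and C57BL6J background that carried the Oct4(deltaPE)-GFP reporter transgene. Gonads were dissociated with trypsin, GFP-positive cells were sorted, and the RNA of 500 cells was amplified by whole-transcriptome PCR, labelled with biotin and hybridised, per the labels. They were compared with control males (Ring1+;Rnf2+) and with females of the genotype Ring1+;Rnf2delta over the same interval, and set beside control females at E13.5, again with 3 arrays in each group and stage. No drug or other treatment is given in the labels. The reporter defines the cells, so each value describes the cells that drive this transgene at that stage. Whether the 3 arrays of each group stem from different embryos is not stated in the labels. The p-values therefore refer to array-to-array spread, part of which may be technical.

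Primordial germ cells are the founders of eggs and sperm. They are specified in the early embryo under BMP signalling, migrate to the genital ridges and there acquire a late germline programme in which RNA-binding proteins such as Dazl prepare them for sexual differentiation. In XX gonads, germ cells later leave mitosis and enter meiotic prophase under the control of Stra8 and Meiosin, with retinoic acid and BMP signals as known inputs, whereas XY germ cells pass through Nodal signalling and arrest in mitosis. The interval studied here is the day before and around the first sexual divergence of the 2 germ cell populations.

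The cells carried the markers of germ cells. All 8 germ cell markers examined lay between 4.57 and 9.59 (log2 signal) on the 6 arrays, against array medians of 2.52 to 2.66 over all probe sets. Of 54 markers of supporting, interstitial, steroidogenic, endothelial, erythroid and macrophage cells on the array, 53 lay at or below 3.68 on each of the 6 arrays, and 0 of the 43 that were tested passed the limma threshold (2 had an unadjusted p under 0.05). The exception was Pecam1, an adhesion molecule that germ cells also express, at 6.61 to 7.12. Of all 15180 genes tested, 2.04% were higher and 8.14% lower past the limma threshold, and 3491 had an unadjusted p under 0.05. The Y-linked genes Kdm5d, Uty, Eif2s3y and Zfy1 lay below their array's 40th percentile on all 6 arrays. A probe set named Sry gave 3.91 to 4.70 in these females and 3.56 to 4.36 in males, so it did not separate the sexes.

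The E12.5 arrays varied more among themselves than any other group of the study. The median within-group SD over genes was 0.238 at E12.5 and 0.162 at E11.5. Each E12.5 array correlated with the other arrays of its group at 0.964 to 0.970 across genes, against 0.983 to 0.990 for the 24 arrays of the 8 groups that are not E12.5 females. The interquartile range of relative log2 expression, a measure of how far an array departs from the typical array, was 0.395 to 0.533 at E12.5, against 0.248 to 0.390 in those 24 arrays. The 3 arrays of Rnf2delta females at E12.5 came next in correlation, at 0.974 to 0.978, and their interquartile range of 0.361 to 0.446 overlapped that of the control females of E12.5. The mean log2 signal of 55 small RNA genes was 5.21 to 5.32 at E12.5 and lay between 4.61 and 5.14 on the other 27 arrays. The part that RNA quality or amplification had in the results below was not tested. The statistical model gave each group its own overall spread for this reason.

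**Figure D1:**
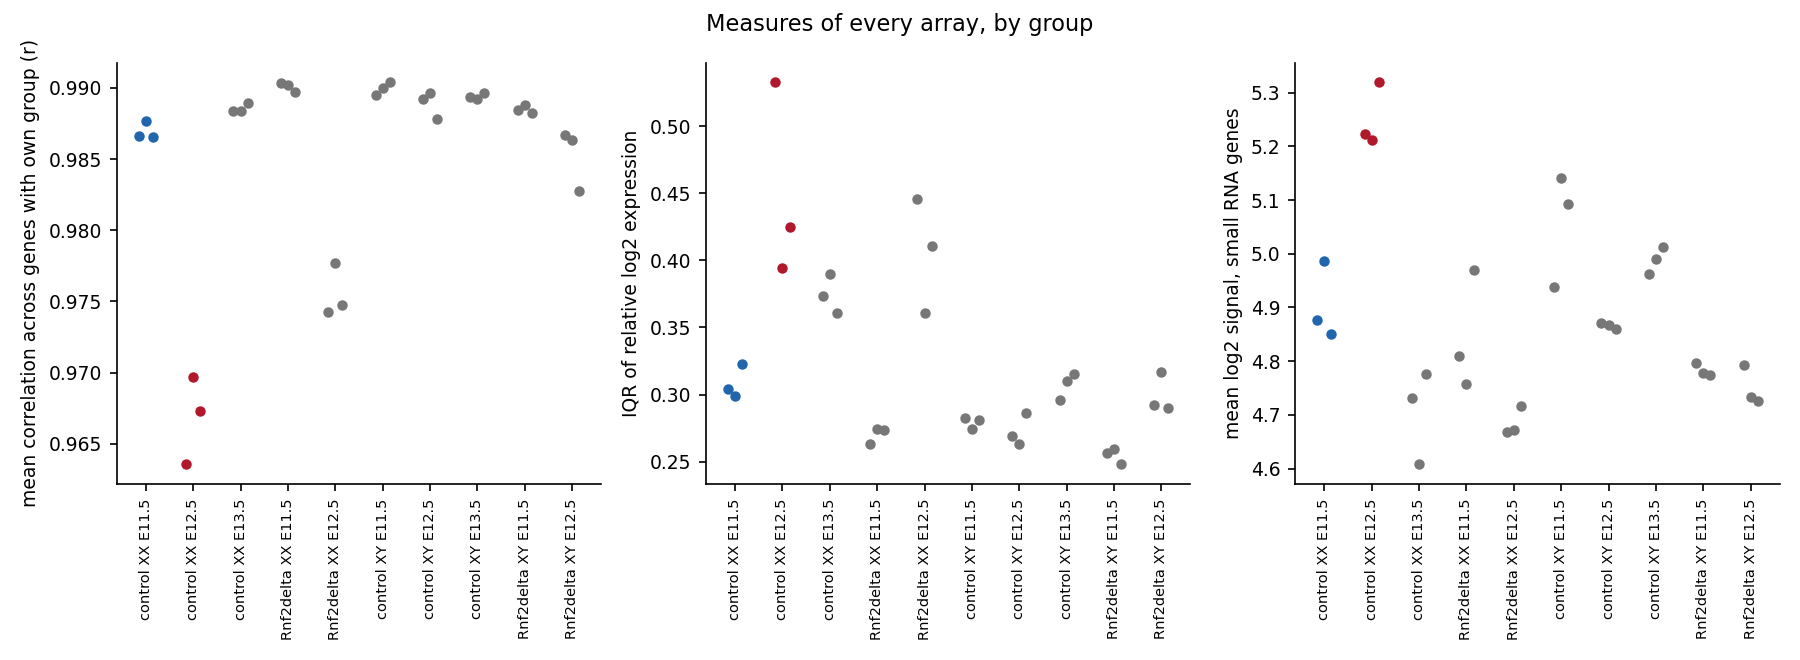
Measures of all 30 arrays by group, 1 point per array: mean correlation across genes with the other arrays of the group, interquartile range (IQR) of relative log2 expression, and mean log2 signal of the small RNA genes. The control XX arrays of E12.5 (red) have the lowest correlations, 0.964 to 0.970, and the highest small RNA signal, 5.21 to 5.32. The control XX arrays of E11.5 are blue and all others grey.

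Of 15180 genes tested in control XX germ cells, 309 (2.04%) were higher and 1235 (8.14%) lower at E12.5 than at E11.5 (limma, Benjamini-Hochberg adjusted p under 0.05). A difference of 1 on the log2 scale is a doubling. The median change over all genes was -0.07. At an unadjusted p under 0.05 there were 3491 of the 15180 genes, counting both directions. The unadjusted counts of the gene lists below are to be read beside this number. Of the genes past the threshold, 20% were higher, and after quantile normalization this share was 37.1%, with 429 higher and 726 lower. The counts depended on single arrays: leaving out 1 array at a time gave 131 to 271 higher genes, lowest without E12.5 replicate 2, and 664 to 1339 lower genes, lowest without E12.5 replicate 1. Without E12.5 replicate 2 there were 797 lower genes. Under all 16 alternative settings, 56 of the higher and 373 of the lower genes kept their call. In bulk arrays, fewer cells with a transcript and less transcript per cell cannot be told apart.

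Some genes of the late germline programme rose. Of 25 tested genes of germline licensing and the piRNA pathway, 3 were higher (12% against 2.04% of all genes) and 1 was lower (4% against 8.14%), with a median log2 change of 0.10. The 3 were Dazl, which encodes an RNA-binding protein required for germ cells to become competent for sexual differentiation, Ddx4, which encodes the germline RNA helicase also called mouse vasa homologue, and Stk31, which encodes a germ cell protein with a Tudor domain. Their promoters are among the 5 taken by the largest change from the called genes of the germline, early germ cell and meiotic lists. The sequences upstream of these 3 start sites are shown here. Each is the 250 bases before the start site, from RefSeq, assembly GRCm38.p6, in the direction of transcription, with matches to CACGTG (an E-box) or GGCGGGAA (an E2F motif), sought on both strands, in capitals.
Dazl, chr17:50293621-50293870, minus strand: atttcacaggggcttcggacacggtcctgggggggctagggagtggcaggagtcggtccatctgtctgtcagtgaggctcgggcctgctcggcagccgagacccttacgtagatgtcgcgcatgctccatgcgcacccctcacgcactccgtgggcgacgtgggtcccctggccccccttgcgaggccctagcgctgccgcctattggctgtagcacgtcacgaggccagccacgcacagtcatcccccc
Ddx4, chr13:112652311-112652560, minus strand: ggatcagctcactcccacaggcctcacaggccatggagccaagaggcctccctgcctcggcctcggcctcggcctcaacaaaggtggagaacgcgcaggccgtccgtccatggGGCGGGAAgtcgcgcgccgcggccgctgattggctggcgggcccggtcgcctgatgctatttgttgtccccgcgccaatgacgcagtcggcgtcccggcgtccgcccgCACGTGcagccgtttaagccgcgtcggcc
Stk31, chr6:49395289-49395538, plus strand: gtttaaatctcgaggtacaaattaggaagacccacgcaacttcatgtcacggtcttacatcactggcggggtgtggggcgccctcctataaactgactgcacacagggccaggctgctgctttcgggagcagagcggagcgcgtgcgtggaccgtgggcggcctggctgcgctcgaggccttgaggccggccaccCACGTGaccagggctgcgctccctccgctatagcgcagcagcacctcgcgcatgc

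The Ddx4 window holds both motifs, the Stk31 window the E-box alone, and the Dazl window neither. Stk31 has a second start site, not shown, whose window also holds the E-box alone, at -120. The windows of Dmc1 and Smc1b, 2 meiotic genes that also rose, hold neither. The E-box letters occur in 6.0% of all RefSeq promoters of the same length, counted by promoter. Counted by gene, with a match at any of its start sites, they occur in 9.27% of the 12002 tested genes with a matched promoter. The same count gave 30 of the 229 matched genes that were higher at E12.5 (13.1%). The share by promoter and the shares by gene are unlike measures. The E2F letters occur in 1.9% of promoters, and in 3.61% and 4.8% of these 2 sets of genes. A match is a description of the sequence and not a binding site.

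Dazl gave log2 signals of 6.37, 7.08 and 7.51 at E11.5 and 8.24, 8.82 and 8.83 at E12.5. Every E12.5 array lay above every E11.5 array, and the log2 change was 1.64 ± 0.33 (SE, limma adjusted p = 0.0016). Ddx4 gave 5.34, 6.41 and 6.62 at E11.5 and 7.42, 7.61 and 8.12 at E12.5. The arrays did not overlap between the stages, and the log2 change was 1.59 ± 0.32 (limma adjusted p = 0.0016). Stk31 gave 3.84, 4.09 and 4.11 and then 5.05, 5.59 and 5.74, a log2 change of 1.44 ± 0.33 (limma adjusted p = 0.0047). By E13.5 the means were 8.76 for Dazl, 7.83 for Ddx4 and 6.13 for Stk31, against 8.63, 7.72 and 5.46 at E12.5.

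Of the other genes of the programme, 21 did not pass and 1 fell. Mael and Tdrd1, piRNA pathway genes, had log2 changes of 0.68 ± 0.34 (limma adjusted p = 0.23) and 0.34 ± 0.32 (limma adjusted p = 0.59). Tdrd12, a Tudor domain gene of piRNA biogenesis, fell, with 5.47, 5.64 and 5.67 at E11.5 and 4.01, 4.84 and 4.99 at E12.5 (limma adjusted p = 0.0081). The calls of Dazl and Ddx4 held in all 16 alternatives. That of Stk31 was lost without E12.5 replicate 2 (log2 change 1.30, limma adjusted p = 0.054) and that of Tdrd12 without E12.5 replicate 1 (-0.68, limma adjusted p = 0.099).

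Genes of BMP signalling were led by Zglp1, the transcription factor known to direct the oogenic fate downstream of BMP. Zglp1 gave 2.89, 3.18 and 3.66 at E11.5 and 5.12, 5.56 and 5.84 at E12.5. The stages did not overlap, and the rise of 2.26 ± 0.27 (limma adjusted p = 3.1e-06) was the largest of any protein-coding gene named here. Zglp1 stood at 5.97 to 6.39 at E13.5. Gata2, a zinc finger factor and BMP target, gave 3.93, 3.98 and 4.12 and then 4.51, 5.11 and 5.21, a rise of 0.93 ± 0.22 (limma adjusted p = 0.006). Id2, an inhibitor of basic helix-loop-helix factors induced by BMP, gave 2.73, 2.87 and 3.27 and then 3.64, 4.42 and 4.86, a rise of 1.35 ± 0.39 (limma adjusted p = 0.023). Neither gene overlapped between the stages.

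Of the 20 tested genes of the BMP list, 3 were higher (15% against 2.04% of all genes) and 2 lower (10%, near the 8.14% of all genes), with a median log2 change of 0.25. Those lower were the signal transducer Smad1, by -0.77 ± 0.24 (limma adjusted p = 0.034), and the inhibitory Smad7, by -0.63 (limma adjusted p = 0.040). Id1, another BMP target, had a log2 difference of 0.44 ± 0.28 (limma adjusted p = 0.38). The call of Zglp1 held in all 16 alternatives. The call of Gata2 was lost without E12.5 replicate 2 (0.80, limma adjusted p = 0.076), and that of Id2 without E11.5 replicate 2, E12.5 replicate 1 or E12.5 replicate 2 (changes from 1.08 to 1.30, largest limma adjusted p = 0.20). Leaving out 1 array at a time left 1 to 3 higher members of the list and 0 or 1 lower. The call of Smad1 was lost without any 1 array other than E11.5 replicate 2.

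**Figure D2:**
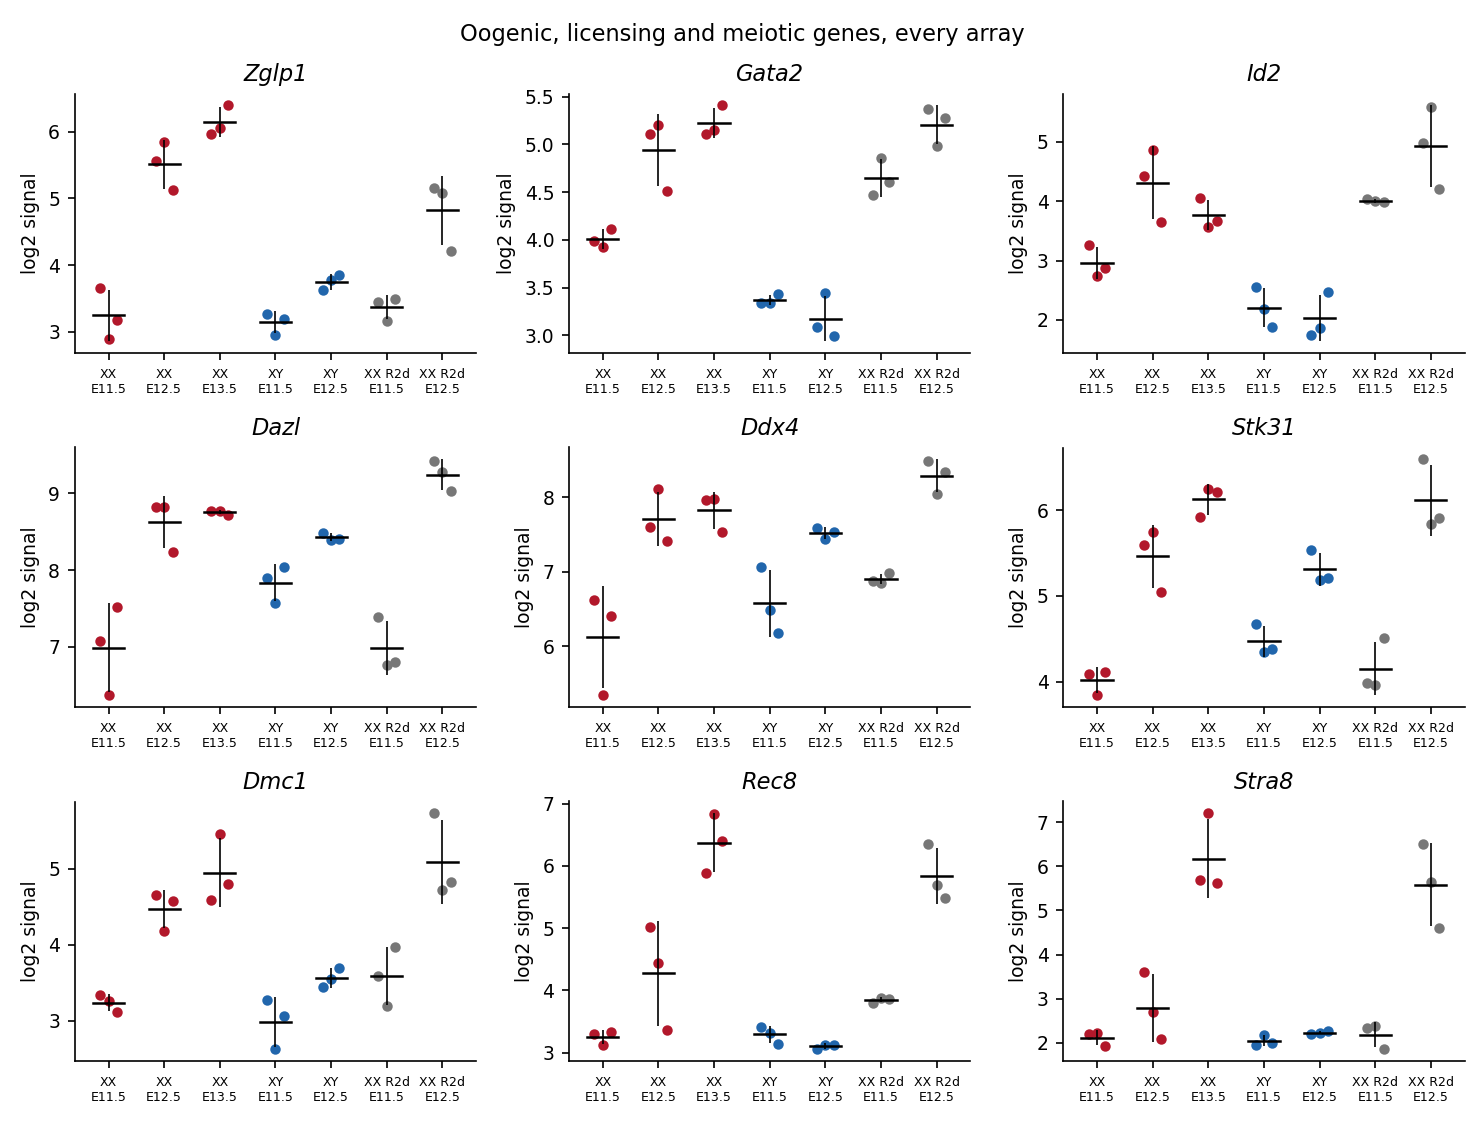
Log2 signal of 9 genes on every array (points), with group means (horizontal bars) and SD (vertical bars), n = 3 arrays. XX and XY are control germ cells, and XX R2d stands for females of the genotype Ring1+;Rnf2delta. Zglp1, Dazl, Ddx4, Stk31 and Dmc1 separate E12.5 from E11.5 in control XX cells, whereas Stra8 stands at 2.07 to 3.61 at E12.5 and at 5.62 to 7.21 at E13.5.

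Some genes of the meiotic programme rose. Of 42 tested genes of meiotic entry and prophase I, 5 were higher and 0 lower in limma (11.9% higher against 2.04% of all genes; 9 higher and 0 lower at an unadjusted p under 0.05), and the median log2 change was 0.26 against -0.07 over all genes. The 5 were Dmc1, which encodes the meiotic recombinase, the cohesin genes Smc1b, Rec8 and Stag3, and Hormad1, which encodes a protein of the chromosome axis. Dmc1 gave 3.12, 3.26 and 3.34 at E11.5 and 4.18, 4.57 and 4.66 at E12.5. It separated the stages fully, with a rise of 1.23 ± 0.31 (limma adjusted p = 0.0091) that held in all 16 alternatives.

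Smc1b gave 5.28, 5.45 and 5.54 and then 6.04, 6.70 and 6.70, a rise of 1.06 ± 0.32 (limma adjusted p = 0.032). Hormad1 gave 3.97, 4.04 and 4.36 and then 4.51, 5.36 and 5.37, a rise of 0.96 ± 0.24 (limma adjusted p = 0.010). Stag3 rose by 0.79 (limma adjusted p = 0.012). The first 2 did not overlap between the stages. Rec8 gave 3.12, 3.30 and 3.33 at E11.5 and 3.36, 4.43 and 5.02 at E12.5. The lowest E12.5 array of Rec8, replicate 3, was close to the highest E11.5 array, and the rise was 1.02 ± 0.28 (limma adjusted p = 0.015).

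Stra8, the gatekeeper of meiotic entry, did not pass the test. It gave 1.92, 2.19 and 2.22 at E11.5 and 2.07, 2.71 and 3.61 at E12.5, and the groups overlapped (0.68 ± 0.40, limma adjusted p = 0.33). The highest E12.5 value was that of replicate 1 and the lowest that of replicate 3, the same arrays that were highest and lowest for Rec8. At E13.5 Stra8 gave 5.62, 5.69 and 7.21. Meioc, which encodes a factor that sustains meiotic prophase, had a log2 difference of 0.59 ± 0.31 (limma adjusted p = 0.26), with 1.55 to 2.04 at E11.5, 2.21 to 2.52 at E12.5 and 4.95 to 5.67 at E13.5. Of the genes of the synaptonemal complex, Sycp3 had a log2 difference of 0.57 ± 0.40 (limma adjusted p = 0.44) and Sycp1 one of 0.98 ± 0.34 (limma adjusted p = 0.065). Their means were 5.52 and 3.54 at E12.5 and 7.21 and 5.13 at E13.5.

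The number of meiotic genes called varied from 1 to 6 when 1 array was left out. Rec8 lost its call without E11.5 replicate 2, E12.5 replicate 1 or E12.5 replicate 2, with changes of 0.65 to 0.96, and when only the compared arrays were fitted. Smc1b lost it without E11.5 replicate 1 or 2 or E12.5 replicate 1 or 2, with changes of 0.95 to 1.12. Hormad1 lost it without E12.5 replicate 1 or 3, at 0.82 each.

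Genes of retinoic acid signalling did not pass: 0 of 16 were higher or lower by limma, 0 of them at an unadjusted p under 0.05, with a median log2 change of 0.00. Of all genes, 2.04% were higher and 8.14% lower, so few limma calls would fall among 16 genes. Rarb, a receptor gene that retinoic acid induces in many tissues, gave 2.15, 2.21 and 2.30 at E11.5 and 1.99, 2.21 and 2.41 at E12.5, values near the array median. Crabp1, which encodes a cellular retinoic acid binding protein, had a log2 difference of 0.40 ± 0.29 (limma adjusted p = 0.46). Of 10 tested genes of oocyte differentiation, 0 were higher and 1 was lower in limma (10%, near the 8.14% of all genes), against 1 and 1 at an unadjusted p under 0.05. Figla, an oocyte transcription factor, stood at 2.38 to 2.94 and 2.14 to 2.77 (limma adjusted p = 0.92). The gene that fell was Ooep, which encodes a protein of the oocyte's subcortical complex, with 5.29, 5.61 and 6.01 at E11.5 and 4.08, 4.89 and 5.37 at E12.5. Its stages overlapped, and its call (-0.86 ± 0.24, limma adjusted p = 0.020) was lost without E11.5 replicate 3, E12.5 replicate 1 or E12.5 replicate 3 (-0.67, -0.51 and -0.91). It was also lost with a weight for each array (-0.68), with only the compared arrays and after quantile normalization (-0.70).

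Some genes of the Nodal pathway fell. Tdgf1, which encodes the Nodal co-receptor Cripto, gave 6.11, 6.43 and 7.33 at E11.5 and 2.78, 3.19 and 4.86 at E12.5. Every E12.5 array lay below every E11.5 array, and the fall of -3.01 ± 0.47 (limma adjusted p = 0.00012) was the largest of any gene named here. At E13.5 it stood at 1.89 to 2.70. Nodal itself gave 4.38, 4.59 and 4.61 and then 3.57, 3.81 and 3.81, a fall of -0.80 ± 0.22 (limma adjusted p = 0.020) without overlap. Lefty1, a Nodal target and antagonist, gave 4.09, 4.48 and 4.52 and then 2.85, 3.32 and 3.41. The Lefty1 arrays did not overlap either, but the difference of -1.17 ± 0.46 missed the threshold (limma adjusted p = 0.11).

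Of the 10 tested genes of the male germ cell and Nodal list, 2 were lower (20% against 8.14% of all genes) and 0 higher in limma, against 3 and 0 at an unadjusted p under 0.05. Nanos2, the gene of male germ cell fate, stood at 2.31 to 2.42 and 2.16 to 2.68 (limma adjusted p = 0.98). The call of Tdgf1 held in all 16 alternatives, and that of Nodal was lost without E11.5 replicate 2 or any 1 of the E12.5 arrays (-0.72 to -0.84), and after quantile normalization (-0.67).

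Part of the pluripotency network fell while its core genes did not pass. Of 26 tested genes, 6 were lower and 0 higher in limma (23.1% lower against 8.14% of all genes; 10 lower and 0 higher at an unadjusted p under 0.05), with a median log2 change of -0.22. Esrrb, an orphan nuclear receptor of naive pluripotency, gave 5.34, 5.67 and 5.69 at E11.5 and 4.11, 4.37 and 5.04 at E12.5. The stages did not overlap, and the fall of -1.06 ± 0.22 (limma adjusted p = 0.0024) held in all 16 alternatives. The others were Tfcp2l1, another naive factor (-1.05 ± 0.32, limma adjusted p = 0.030), the TGF-beta family ligand Gdf3 (-0.95 ± 0.29, limma adjusted p = 0.036), the RNA-binding L1td1 (-0.86 ± 0.25, limma adjusted p = 0.022), Dppa5a (-0.77, limma adjusted p = 0.0014) and Tcl1 (-0.76, limma adjusted p = 0.032).

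Pou5f1, whose product Oct4 is the central pluripotency factor and whose regulatory sequence drives the sorting reporter, gave 9.19, 9.35 and 9.59 at E11.5 and 9.27, 9.35 and 9.44 at E12.5. The E12.5 values lay inside the E11.5 range (-0.02 ± 0.20, limma adjusted p = 0.97). Sox2 gave 5.92, 6.25 and 6.60 and then 6.26, 6.41 and 6.52 (0.14 ± 0.21, limma adjusted p = 0.76). Nanog gave 8.50, 8.61 and 8.79 and then 7.51, 8.21 and 8.40. The Nanog arrays did not overlap, but the difference of -0.59 ± 0.24 did not pass (limma adjusted p = 0.12). At E13.5 the means of Nanog, Sox2 and Pou5f1 were 6.54, 5.58 and 8.93.

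Of 14 tested genes of early primordial germ cells, 1 was higher (7.14% against 2.04% of all genes) and 2 lower (14.3% against 8.14%). Nanos3, which protects migrating germ cells from apoptosis, gave 6.77, 7.06 and 7.15 and then 5.63, 5.95 and 6.84, with overlap of 1 array, and fell by 0.86 ± 0.25 on the log2 scale (limma adjusted p = 0.028). Ifitm3, a surface marker of early germ cells, gave 10.64, 10.83 and 11.18 and then 9.57, 9.74 and 10.19, a fall of -1.05 ± 0.31 (limma adjusted p = 0.025). Prdm1, Prdm14 and Tfap2c, the trio of factors that specifies germ cells, had log2 differences of -0.11, -0.18 and -0.17, and none passed (limma adjusted p = 0.78, 0.80 and 0.78). Dppa3, also called Stella, was the higher gene, at 0.59 ± 0.18 (limma adjusted p = 0.035), but a second probe set of Dppa3 gave -0.32, and with the mean of both the value was 0.14 (limma adjusted p = 0.76). Kit, the receptor of stem cell factor, had a log2 difference of -0.16 ± 0.18 (limma adjusted p = 0.64).

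Several of these calls depended on single arrays or on scaling. After quantile normalization Tfcp2l1 (-0.87), Gdf3 (-0.78), L1td1 (-0.69), Nanos3 (-0.71) and Ifitm3 (-1.01) did not pass, and Tfcp2l1 and Nanos3 did not pass when only the compared arrays were fitted. Gdf3 also lost its call with a weight for each array, and Ifitm3 with an intensity trend and robust moderation. Leaving out 1 array left 2 to 5 lower pluripotency genes. Tfcp2l1 lost its call without E11.5 replicate 2, E12.5 replicate 1 or E12.5 replicate 2 (-0.76 to -1.04), L1td1 without E11.5 replicate 1 or 2 or E12.5 replicate 1 or 2 (-0.75 to -0.86), and Gdf3 without any 1 array other than E12.5 replicate 2 (-0.79 to -0.99). Nanos3 lost it without E11.5 replicate 1 or 2 or E12.5 replicate 1 or 2 (-0.60 to -0.82), and Ifitm3 without E11.5 replicate 2 or 3 or E12.5 replicate 1 or 2 (-0.90 to -1.08). Of the 6 leave-outs, Dppa3 kept its call in that of E11.5 replicate 2 alone.

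Several genes of mitosis fell. Of 30 tested proliferation genes, 5 were lower (16.7% against 8.14% of all genes) and 2 higher (6.67% against 2.04%), with a median log2 change of -0.26. With 1 array left out at a time there were 3 to 6 lower and 0 or 1 higher. The lower genes act at the centromere, the spindle or in cytokinesis: Aurkb and Birc5, 2 subunits of the chromosomal passenger complex, Cenpa, the centromeric histone, Bub1b, a kinase of the spindle checkpoint, and Aurka, a spindle kinase. Aurkb gave 6.61, 6.62 and 6.62 at E11.5 and 3.49, 5.58 and 5.63 at E12.5. All E12.5 arrays were lower, replicate 1 by far the most, and the change was -1.72 ± 0.35 (limma adjusted p = 0.0019). Birc5 gave 6.96, 7.06 and 7.11 and then 6.06, 6.29 and 6.40 (-0.79 ± 0.19, limma adjusted p = 0.008). Cenpa gave 8.35, 8.36 and 8.39 and then 7.37, 7.64 and 7.82 (-0.76 ± 0.17, limma adjusted p = 0.0047). Birc5 and Cenpa also separated the stages fully and kept their calls in all 16 alternatives.

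Bub1b fell by 0.74 ± 0.19 on the log2 scale (limma adjusted p = 0.0092), a call lost without E12.5 replicate 2 (-0.75, limma adjusted p = 0.051) and after quantile normalization, and Aurka by 0.70 (limma adjusted p = 0.039). Aurkb lost its call when only the 6 compared arrays were fitted (limma adjusted p = 0.053), and its change was -1.01 without E12.5 replicate 1. The 2 higher genes act in S phase: Mcm6, a subunit of the replicative helicase, at 0.59 (limma adjusted p = 0.029), and Ccna2, which encodes cyclin A2, at 0.51 (limma adjusted p = 0.033). Of 8 tested cell cycle inhibitors, 1 was higher and 0 lower in limma, against 3 and 0 at an unadjusted p under 0.05. Their median log2 change was 0.21, and of all genes tested 2.04% were higher. The inhibitor that passed was Rb1, the retinoblastoma gene, with 3.01, 3.44 and 3.46 at E11.5 and 3.96, 4.0 and 4.38 at E12.5 (0.81 ± 0.24, limma adjusted p = 0.027). Its call was lost without E11.5 replicate 1, E12.5 replicate 2 or E12.5 replicate 3 (0.66 to 0.87).

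Several genes of glucose use fell. Of 18 tested glycolysis genes, 5 were lower (27.8% against 8.14% of all genes) and 0 higher in limma, against 7 and 0 at an unadjusted p under 0.05, with a median log2 change of -0.28. Slc2a1, which encodes the glucose transporter GLUT1, gave 7.07, 7.21 and 7.34 at E11.5 and 5.85, 6.41 and 6.72 at E12.5. The stages did not overlap (-0.88 ± 0.21, limma adjusted p = 0.0072), and the mean at E13.5 was 5.37. Pfkp, a phosphofructokinase gene, gave 6.46, 7.07 and 7.19 and then 4.16, 5.72 and 6.14 (-1.57 ± 0.36, limma adjusted p = 0.0053), with a mean of 4.10 at E13.5. The lowest Pfkp array was E12.5 replicate 1, as for Aurkb. The others were Ldha, lactate dehydrogenase (-1.10 ± 0.33, limma adjusted p = 0.030), Pfkl, another phosphofructokinase (-0.89 ± 0.29, limma adjusted p = 0.047), and Pkm, pyruvate kinase (-0.81, limma adjusted p = 0.0066).

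Leaving out 1 array left 2 to 5 of the glycolysis calls. Ldha and Pfkl did not pass after quantile normalization (-0.94 and -0.71), Pfkl without a filter on low signal, or Pfkp when only the compared arrays were fitted (limma adjusted p = 0.055). Slc2a1 lost its call without E12.5 replicate 2 (-0.64) and Pfkp without E12.5 replicate 1 (-0.98). Ldha lost its call without E11.5 replicate 2 or any 1 E12.5 array (-0.76 to -1.21), and Pfkl without E11.5 replicate 1 or 2 or E12.5 replicate 2 or 3 (-0.78 to -0.87). Of 24 oxidative phosphorylation genes, 2 were lower and 0 higher in limma, near the 8.14% of all genes, against 9 and 1 at an unadjusted p under 0.05. Both were subunits of ATP synthase: Atp5d, with 7.55, 7.62 and 7.67 and then 5.65, 6.56 and 6.59 (-1.35 ± 0.19, limma adjusted p = 3e-05), and Atp5a1 (-0.71 ± 0.14, limma adjusted p = 0.0011).

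**Figure D3:**
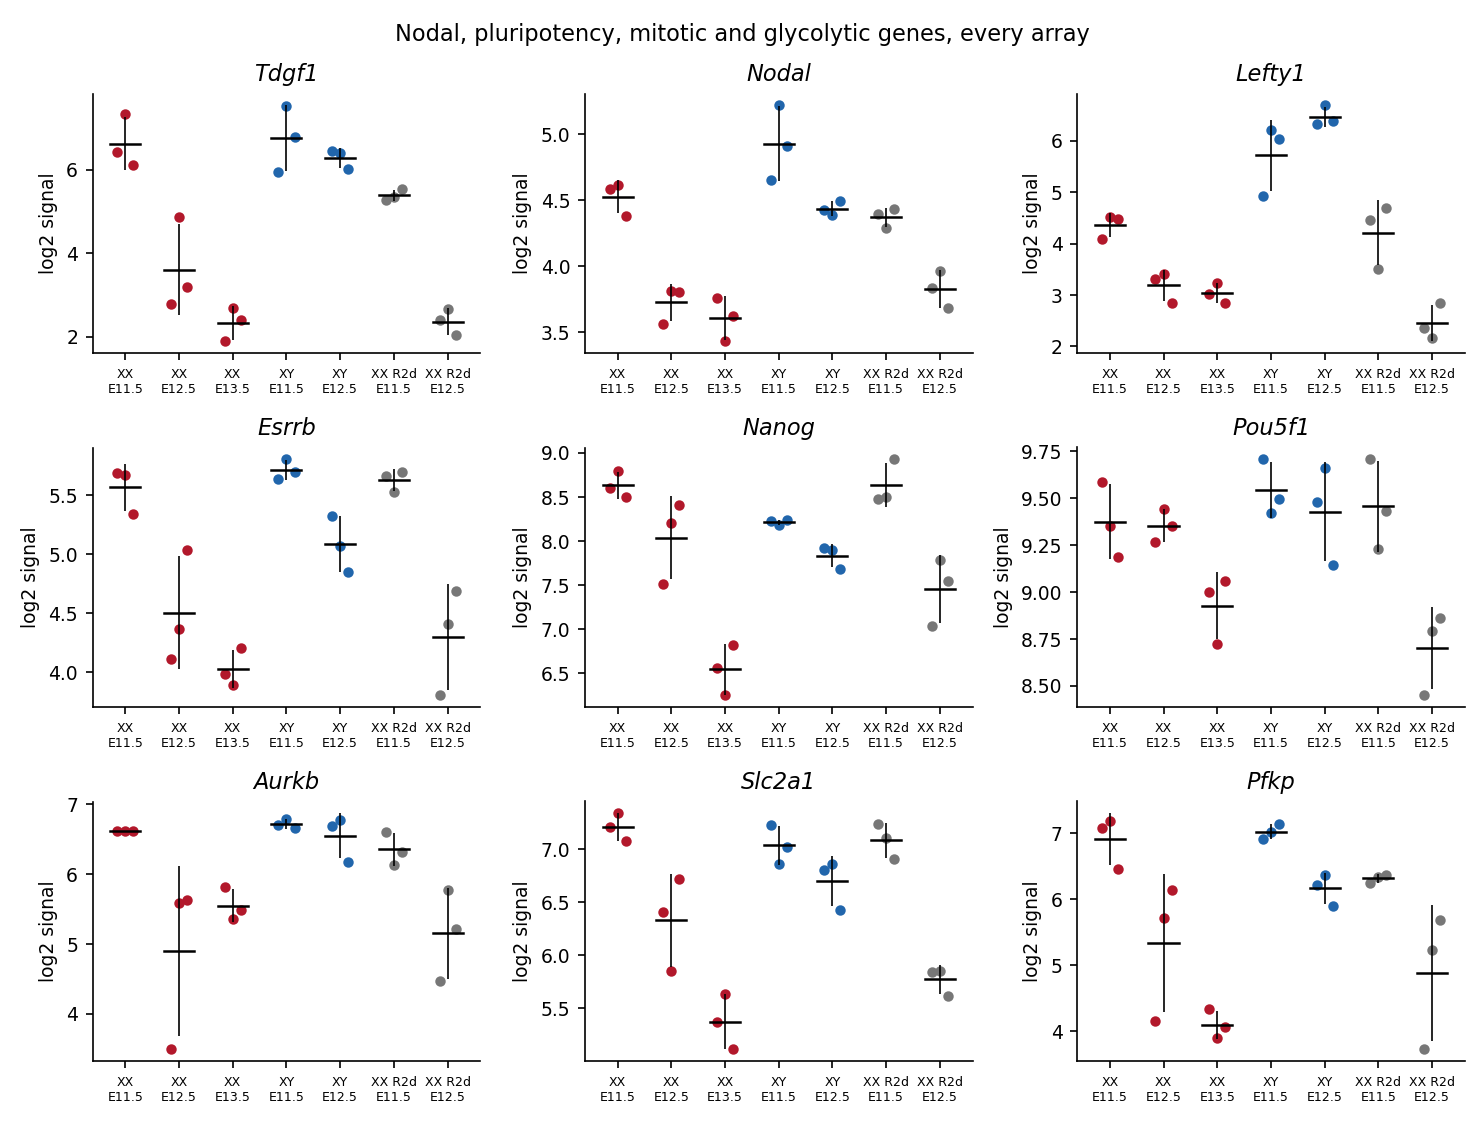
Log2 signal of 9 genes of the Nodal pathway, pluripotency, mitosis and glucose use on every array (points), with group means and SD (bars), n = 3 arrays and groups named as in the plot of the rising genes. Tdgf1 lies at 6.11 to 7.33 at E11.5 and 2.78 to 4.86 at E12.5 in control XX cells and at 6.02 to 6.44 in control XY cells at E12.5, whereas the E12.5 values of Pou5f1 lie within its E11.5 range in control XX cells.

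Some immediate early genes, which cell dissociation can induce, fell. Of 15 tested, 4 were lower (26.7% against 8.14% of all genes) and 0 higher in limma (5 and 0 at an unadjusted p under 0.05): Ier3 (-0.98 ± 0.23, limma adjusted p = 0.0054), Ier2 (-0.92 ± 0.22, limma adjusted p = 0.0058), Zfp36 (-0.70 ± 0.20, limma adjusted p = 0.020) and Klf6 (-0.68 ± 0.21, limma adjusted p = 0.037). Their levels were low, between 2.29 and 4.59 on the 6 arrays. The calls of Zfp36 and Klf6 were lost without E11.5 replicate 2 (-0.53 and -0.49) and without E12.5 replicate 2 or 3. That of Ier2 was lost without E12.5 replicate 1 (-0.74, limma adjusted p = 0.052), as was that of Klf6 (-0.58). With only the compared arrays Zfp36 and Klf6 did not pass, nor did Klf6 after quantile normalization. The part of dissociation in the other results was not tested. None of 17 p53 target and apoptosis genes passed in limma, and 1 had an unadjusted p under 0.05. In limma 2.04% of all genes were higher and 8.14% lower.

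XX germ cells reactivate the inactive X around this stage, when Xist, the RNA that coats it, is lost. Xist gave 2.54, 2.64 and 2.79 at E11.5 and 2.33, 2.72 and 2.88 at E12.5, with complete overlap (-0.01 ± 0.25, limma adjusted p = 0.98). These values lay near the array medians of 2.52 to 2.66. The Xist mean was 2.02 in control females at E13.5, and 2.03 and 1.92 in control males at E11.5 and E12.5. With so low a level at E11.5, the overlap does not show that Xist was retained. Of 50 tested X-linked housekeeping genes, 5 were higher (10% against 2.04% of all genes) and 5 lower (10%, near the 8.14% of all genes), with a median log2 change of 0.04. With 1 array left out at a time, 1 to 5 were higher and 3 to 5 lower. Maged1, a MAGE family gene, gave 5.76, 5.93 and 6.43 and then 6.69, 7.03 and 7.22 (0.94 ± 0.22, limma adjusted p = 0.0059). Utp14a, a gene of ribosome biogenesis, gave 5.0, 5.21 and 5.62 and then 3.88, 3.89 and 4.43 (-1.21 ± 0.25, limma adjusted p = 0.0019). Both calls held in all 16 alternatives. The other higher genes were Cul4b (0.87 ± 0.25), Vbp1 (0.86), Fmr1 (0.79) and Emd (0.72), and the other lower ones Slc25a5 (-1.32 ± 0.39), Smc1a (-0.80), Gla (-0.75) and Atp6ap1 (-0.56). Cul4b lost its call without E11.5 replicate 3 or E12.5 replicate 2 or 3 (0.76 to 0.79), and Slc25a5 without E11.5 replicate 2 or 3 or E12.5 replicate 1 or 2 (-0.86 to -1.53). Slc25a5 has near-identical copies in the genome, so its signal is uncertain. It also lost its call with only the compared arrays, after quantile normalization and with robust moderation.

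Several subunits of Polycomb repressive complex 1 (PRC1), which ubiquitylates histone H2A, rose. Of 25 tested, 5 were higher (20% against 2.04% of all genes) and 2 lower (8%, near the 8.14% of all genes). Rnf2, the catalytic subunit that the study deletes in its other genotype, gave 4.46, 4.56 and 4.61 at E11.5 and 5.08, 5.24 and 5.71 at E12.5 (0.80 ± 0.23, limma adjusted p = 0.024). The stages did not overlap. Yaf2, a subunit of variant complexes, gave 2.68, 3.24 and 3.36 and then 3.90, 4.05 and 4.80 (1.16 ± 0.24, limma adjusted p = 0.0017). Bmi1, a core subunit, rose by 1.01 ± 0.29 (limma adjusted p = 0.022), Cbx8, a chromodomain subunit, by 0.74 (limma adjusted p = 0.029) and Scmh1 by 0.61 (limma adjusted p = 0.038).

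L3mbtl2, of a variant complex that acts at germline genes, gave 5.36, 5.60 and 5.75 and then 4.03, 4.63 and 4.77 (-1.09 ± 0.22, limma adjusted p = 0.0018). Cbx7, a chromodomain subunit of canonical complexes, fell by 0.81 ± 0.22 on the log2 scale (limma adjusted p = 0.016). Ring1, the paralogue of Rnf2, stood at 2.92 to 3.21 and 2.74 to 3.51 (limma adjusted p = 0.85). The calls of Yaf2 and L3mbtl2 held in all 16 alternatives. Rnf2 lost its call without E12.5 replicate 1 or 2 (0.62 and 0.85), Bmi1 without E11.5 replicate 3 or E12.5 replicate 1 or 2 (0.72 to 0.98) and Cbx7 without E11.5 replicate 1 or E12.5 replicate 1 or 2 (-0.60 to -0.71). Bmi1 and Cbx7 also lost theirs when only the compared arrays were fitted, and Cbx7 after quantile normalization. Leaving out 1 array left 1 to 5 higher PRC1 genes.

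Of 12 tested PRC2 subunits, 1 was lower (8.33%, near the 8.14% of all genes): Phf1, an accessory subunit (-0.56 ± 0.16, limma adjusted p = 0.025), a call lost without E11.5 replicate 2 or E12.5 replicate 1 or 2 (-0.49 to -0.52), with only the compared arrays or after quantile normalization. None of 16 genes of DNA methylation and demethylation passed in limma, and 4 had an unadjusted p under 0.05, all of them lower. Of all 15180 genes, 3491 had such a p, and in limma 2.04% were higher and 8.14% lower. Tet1, a dioxygenase that oxidises methylcytosine, gave 7.24, 7.42 and 7.58 and then 6.48, 7.03 and 7.05. These arrays did not overlap, and the difference of -0.56 ± 0.19 was just outside the threshold (limma adjusted p = 0.056). Dnmt1, the maintenance methyltransferase, had a log2 difference of -0.47 ± 0.18 (limma adjusted p = 0.10), and its partner Uhrf1 stood at 2.26 to 3.35 and 2.71 to 3.14. None of 22 imprinted genes passed in limma, and 1 had an unadjusted p under 0.05, with Ndn at -0.61 ± 0.26 (limma adjusted p = 0.14).

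**Figure D4:**
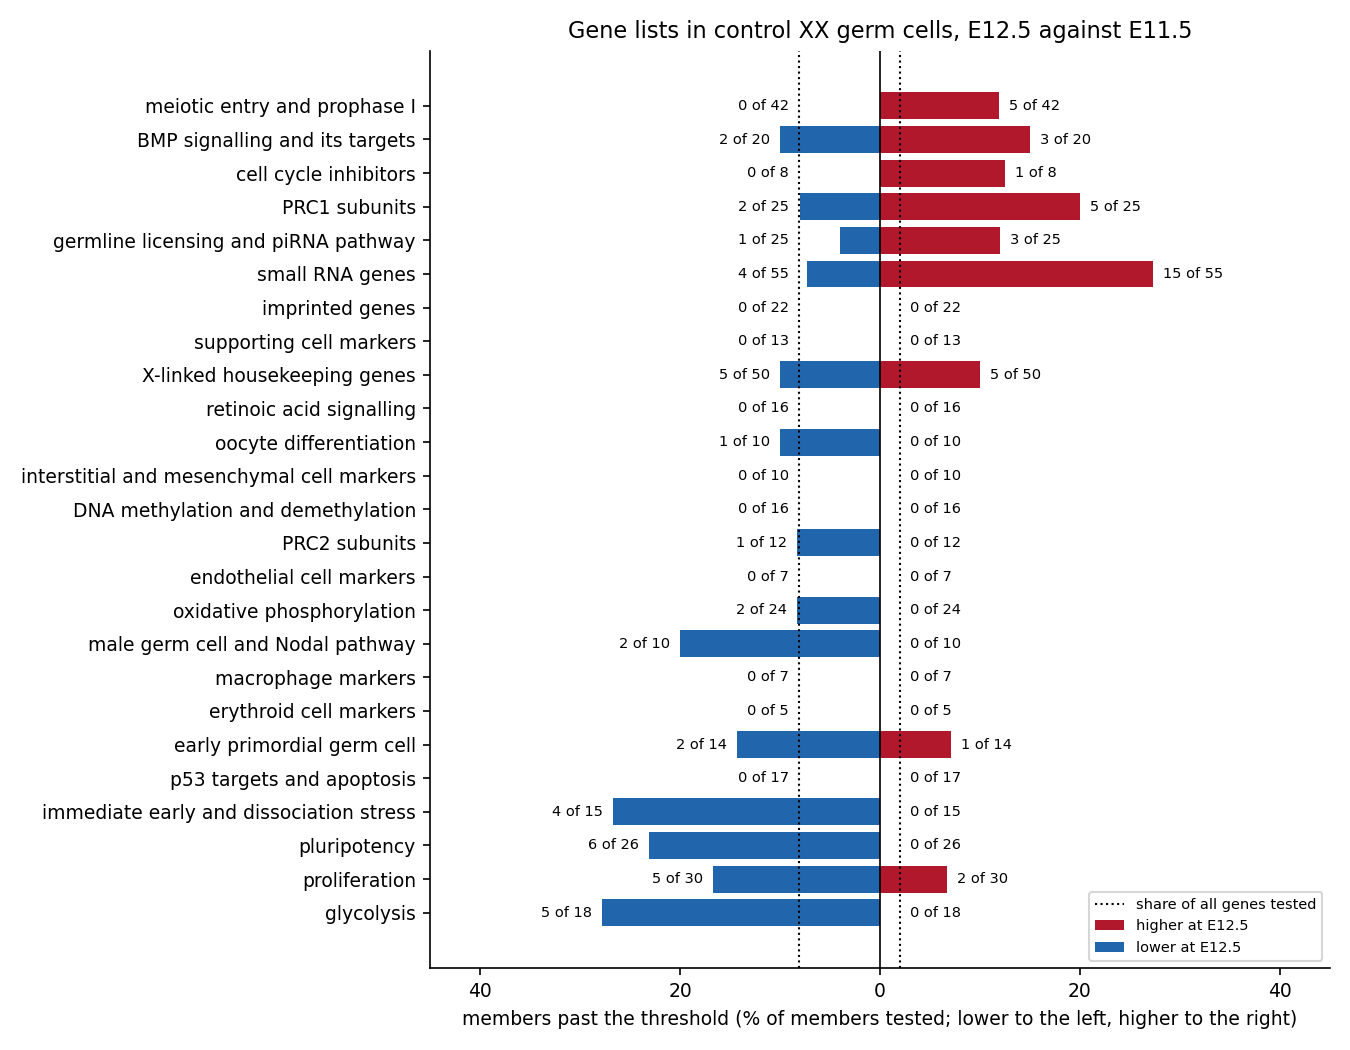
Share of the tested members of each gene list that were lower (left) or higher (right) at E12.5 in control XX germ cells, with counts beside the bars and lists ordered by median log2 change. Dotted lines mark the shares of all genes tested, 8.14% lower and 2.04% higher. Lists with under 5 tested members, the Y-linked genes and the germ cell markers (3 of 8 higher, 1 lower) are not drawn, and of those drawn small RNA genes have the largest share higher, 15 of 55, and glycolysis the largest share lower, 5 of 18.

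The largest rises of all were of small non-coding RNAs. The 12 genes that rose most included n-R5s136, a 5S ribosomal RNA gene (4.65 ± 0.40, limma adjusted p = 1.4e-08), the Y RNA genes Rny1 (4.57 ± 0.38) and Rny3 (1.78 ± 0.27), Rnu3a, a U3 nucleolar RNA (3.24 ± 0.39), Rmrp, the RNA of RNase MRP (2.95 ± 0.44), Vaultrc5, a vault RNA (2.76 ± 0.40), Rnu12, a U12 spliceosomal RNA (2.64 ± 0.31), and Snora20, a small nucleolar RNA (2.47 ± 0.27). Rny1 gave 5.05, 5.72 and 6.32 at E11.5, 9.97, 10.38 and 10.45 at E12.5 and 8.11, 8.36 and 8.53 at E13.5. It was highest on the E12.5 arrays and intermediate at E13.5. Rny3 gave 7.28, 7.51 and 7.58, then 9.19, 9.19 and 9.32, and at E13.5 7.34, 7.36 and 7.84, close to its first level.

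Of 55 tested small RNA genes, 15 were higher (27.3% against 2.04% of all genes) and 4 lower (7.27% against 8.14%), but the median log2 change was 0.10. This list, and the mean small RNA signal taken from it, leave out n-R5s136, Rnu3a, Rmrp and Rnu12. The 4 lower ones were Snord95, Snord104, Snord53 and Snora31. The amplification and labelling of such short transcripts differs from that of messenger RNA, and its part in these values was not tested. The E12.5 arrays stood apart from the other 27 in this signal, as they did in the correlation within the group. The 5S genes exist in many copies, so n-R5s136 stands for the family. The other 4 of the 12 were Zglp1, Tmem243, which encodes a membrane protein, the histone gene H2bc3, of a family of near-identical copies, and Cited1, a transcriptional co-regulator. Cited1 gave 2.56, 2.91 and 2.98 at E11.5, 4.08, 4.52 and 5.21 at E12.5 and a mean of 6.20 at E13.5, a rise of 1.79 ± 0.42 in the interval studied (limma adjusted p = 0.0053). The calls of these 12 genes held in all 16 alternatives.

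The largest falls after Tdgf1 were of genes with varied functions. They were Ppp2r5a, a regulatory subunit of phosphatase 2A (-2.79 ± 0.39), 1110002L01Rik (-2.28 ± 0.43), Slc40a1, the iron exporter ferroportin (-2.27 ± 0.42), Dda1, of a ubiquitin ligase complex (-2.25 ± 0.36), Mir6516 (-2.22 ± 0.39), Gm10874 (-2.11 ± 0.21), Commd6 (-2.06 ± 0.42), Trappc4, a subunit of the vesicle tethering complex TRAPP (-1.96 ± 0.24), Ctsz, a lysosomal cathepsin (-1.96 ± 0.31), Pcnp (-1.92 ± 0.33) and Tomm5, of the mitochondrial import pore (-1.86 ± 0.40). Commd6 gave 6.83, 6.97 and 7.40 at E11.5 and 2.96, 5.34 and 6.72 at E12.5, and its mean was 6.74 ± 0.15 (SD, n = 3) at E13.5. The 3 E12.5 arrays of Commd6 span more than the whole difference between the stages. Trappc4 gave 6.35, 6.45 and 6.46, then 3.90, 4.20 and 5.28, and 6.0 ± 0.23 (SD, n = 3) at E13.5.

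Several of these genes were thus lower on the E12.5 arrays than on the arrays of either neighbouring stage. Tomm5 gave 6.54, 6.99 and 7.46, then 3.26, 6.01 and 6.13, and 6.40 ± 0.18 (SD, n = 3) at E13.5. The lowest array was E12.5 replicate 1 for Commd6, Pcnp, Tomm5 and Mir6516, and without it the Tomm5 difference was -0.93 (limma adjusted p = 0.065), the Commd6 change -1.04 and the Pcnp change -1.20. Commd6, Pcnp and Tomm5 lost their calls when only the 6 compared arrays were fitted (limma adjusted p = 0.11, 0.063 and 0.11). Pcnp had a second probe set, at 3.17 and 3.15 in the 2 stages, and the other 3 probe sets of Ppp2r5a fell by less, by -1.40, -0.90 and -0.88.

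The change was then set against that of control XY germ cells over the same interval, which share no array with the XX comparison. In males, 431 genes were higher (2.84%) and 684 lower (4.51%). Of the 309 genes higher in females, 65 were also higher in males (21.0% of the female and 15.1% of the male genes), and 4 were lower. Of the 1235 lower in females, 224 were also lower in males (18.1% and 32.7%), and 12 were higher. The direction of change in males was the same for 75.7% of the higher and 77.2% of the lower genes. Of all genes, 45.2% had a rise and 54.8% a fall in males. A direct test of the sex difference of the change passed for 80 genes that rose more or fell less in females (0.527%) and for 320 that fell more or rose less (2.11%).

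Zglp1 separated the sexes. In males it gave 2.96, 3.20 and 3.27 at E11.5 and 3.62, 3.77 and 3.85 at E12.5, all below the lowest E12.5 female array. The male change was 0.61 (limma adjusted p = 0.044), and the difference of the changes was 1.66 ± 0.33 (limma adjusted p = 0.0041), a call kept in every alternative run. Gata2 had a log2 difference of -0.20 in males (difference 1.13 ± 0.27, limma adjusted p = 0.018) and Rec8 one of -0.19 (difference 1.21 ± 0.34, limma adjusted p = 0.046). The sex difference of Gata2 was lost without E11.5 replicate 2 or E12.5 replicate 1 or 2 (1.0 to 1.09), and that of Rec8 in 10 of the 16 alternatives, over all of which it ranged from 0.84 to 1.67.

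Tdgf1 did not pass in males (-0.47, limma adjusted p = 0.45), with 5.95, 6.79 and 7.53 at E11.5 and 6.02, 6.41 and 6.44 at E12.5, where no XX array exceeded 4.86. The difference of the changes was -2.54 ± 0.57 (limma adjusted p = 0.012), lost without E11.5 replicate 2 or E12.5 replicate 1 or 3 (-2.13 to -2.33) and when only the 12 control arrays of E11.5 and E12.5 were fitted (limma adjusted p = 0.073). Lefty1 had a log2 difference of 0.75 in males against -1.17 in females, a difference of -1.92 ± 0.56 that missed the threshold (limma adjusted p = 0.063). At E12.5 Lefty1 gave 6.33, 6.39 and 6.69 in males against 2.85, 3.32 and 3.41 in females, with no overlap. Aurkb and Bub1b had log2 differences of -0.17 and 0.21 in males (limma adjusted p = 0.76 and 0.37), and their sex differences were -1.55 ± 0.43 (limma adjusted p = 0.047) and -0.95 ± 0.23 (limma adjusted p = 0.017). That of Aurkb was lost in 10 of the 16 alternatives, and it was -0.85 without E12.5 replicate 1. That of Bub1b was lost without E11.5 replicate 1 or E12.5 replicate 1 or 2 (-0.84 to -0.96) and after quantile normalization.

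Other genes moved in both sexes. The 25 licensing and piRNA genes had 5 higher and 1 lower in males, against 3 and 1 in females. Their median log2 changes were 0.22 and 0.10, and 0 passed the sex difference. The 42 meiotic genes had 2 higher and 0 lower in males, against 5 and 0 in females, and 1 passed the sex difference. Of all genes, 2.84% were higher and 4.51% lower in males. Smc1b rose by 1.06 ± 0.32 in females and 1.06 in males (difference -0.01 ± 0.39, limma adjusted p = 1.0), Rnf2 by 0.80 and 0.83 (difference -0.03 ± 0.28), and Ddx4 by 1.59 and 0.95 (difference 0.65 ± 0.39, limma adjusted p = 0.46). Dazl had a log2 difference of 0.59 in males (limma adjusted p = 0.11), where it started higher, at 7.57 to 8.04 against 6.37 to 7.51 in females. Its difference of 1.05 ± 0.40 did not pass (limma adjusted p = 0.18). Esrrb and Tfcp2l1 fell in both sexes, Esrrb by -1.06 and -0.63 and Tfcp2l1 by -1.05 and -0.93. ND3, a mitochondrial gene for a subunit of complex I, did not pass in females, with 11.31 to 11.43 and 11.27 to 11.34, and fell in males by 1.29 on the log2 scale. Cks2, a cell cycle regulator, fell in males by 1.46 on the log2 scale and had a difference of 0.65 in females, where its other probe sets gave -0.73 and -0.38. With the mean of its probe sets the Cks2 sex difference was lost (0.23, limma adjusted p = 0.69).

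**Figure D5:**
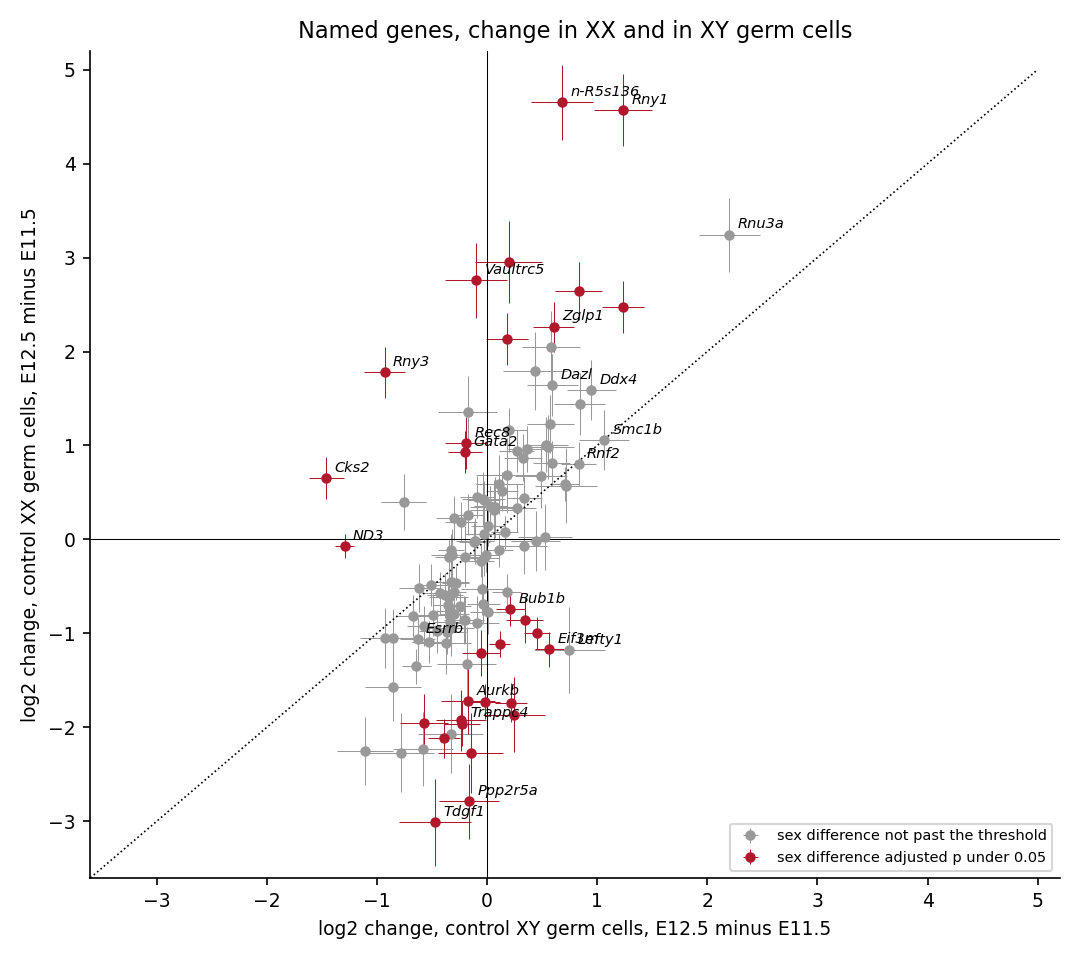
Log2 change from E11.5 to E12.5 of the 121 named genes in control XX germ cells (vertical axis) against control XY germ cells (horizontal axis), with SE bars and the line of equal change (dotted). Red points are the 30 genes whose change differed between the sexes, 10 of them named for the smallest p in that test. Zglp1 lies at 2.26 in XX and 0.61 in XY cells, Tdgf1 at -3.01 and -0.47, and Smc1b on the line.

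The same interval in XX cells of the genotype Ring1+;Rnf2delta, again with no shared array, gave 907 higher (5.97%) and 1491 lower genes (9.82%). Rnf2 itself had means of 3.94 and 4.72 in these females against 4.54 and 5.35 in controls, and whether its probe set lies in the deleted part is not given in the sources used here. Of the genes that changed in control females, 175 of the 309 higher (56.6%) and 723 of the 1235 lower (58.5%) were called in the same direction, and 2 and 1 in the opposite one. These were 19.3% and 48.5% of the genes called in the Rnf2delta females. The direction of change was the same for 93.5% of the higher and 97.3% of the lower genes, against 42.1% and 57.9% of all genes with a rise or a fall.

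Zglp1, Dazl, Ddx4, Stk31 and Dmc1 rose there by 1.45, 2.26, 1.38, 1.96 and 1.50, and Tdgf1 and Esrrb fell, by -3.03 and -1.33. The mean small RNA signal in these females was 4.76 to 4.97 at E11.5 and 4.67 to 4.72 at E12.5. The part of array quality in these changes was not tested. Rny1 rose there by 3.0, as did Rmrp (2.31), Rnu3a (2.18), n-R5s136 (2.03), Snora20 (1.54) and Rnu12 (1.40), each with a limma adjusted p under 0.05. Rmrp, Rnu3a, n-R5s136 and Rnu12 are not among the small RNA genes of that mean. Vaultrc5 and Rny3 had differences of 0.33 and 0.15 (limma adjusted p = 0.60 and 0.73). In control males Rnu3a (2.20), Snora20 (1.24), Rny1 (1.23) and Rnu12 (0.83) also rose past the threshold. The male differences of n-R5s136, Rmrp and Vaultrc5 did not pass.

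Among the 42 tested meiotic genes, 26 were higher and 0 lower in the Rnf2delta females, against 5 and 0 in controls. Their median log2 changes were 0.92 and 0.26. The 25 licensing and piRNA genes had 15 higher and 0 lower, against 3 and 1 in controls, with medians of 0.73 and 0.10. Of all genes, 5.97% were higher in the Rnf2delta females and 2.04% in controls. A direct test of the difference between the genotypes passed for 1 gene with a greater rise in controls (0.00659%), Gm12238, and for 3 with a smaller rise or a greater fall in controls (0.0198%). The latter were Meioc, 1700013H16Rik and Usp31, and all but Meioc were named after their values were seen. Past this direct test were 1 of the 42 meiotic genes and 0 of the 25 licensing and piRNA genes. Meioc gave 4.43, 4.83 and 6.10 in Rnf2delta females at E12.5 against 2.21, 2.33 and 2.52 in controls, and the difference of the changes was -2.48 ± 0.41 (limma adjusted p = 0.013). That call was lost without E12.5 replicate 2 or 3 of the controls (-2.40 and -2.47). Stra8 gave 4.60, 5.66 and 6.50 there against 2.07, 2.71 and 3.61, a difference of the changes of -2.72 ± 0.53 that missed the threshold (limma adjusted p = 0.058). Neither gene overlapped between the genotypes at E12.5, and both genotypes lay between 1.55 and 2.37 at E11.5 for these 2 genes.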

How the data were processed

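The authors deposited log2 signals of 34760 probe sets for 30 arrays, with array medians of 2.52 to 2.66. The submitters' processing notes name R 2.15 and affy 1.36. How background was corrected, how probes were summarised and which build applied is not given in the sources used here. Scan dates were not used here.

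Symbols came from the platform annotation, brought up to date by Entrez identifier from RefSeq (GRCm38.p6): 21640 probe sets had 1 symbol, 1321 several and 11799 none. Of several probe sets of a gene, the one with the highest mean was taken. A gene was tested if at least 3 arrays exceeded their own 40th percentile, which kept 15180 of 19937. Nobox was removed by this filter.

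All comparisons came from a single limma model (limma 3.58.1 under R 4.3.3) on the 30 arrays, which gave every group its own mean and its own variance weight. Tests were two-sided, with Benjamini-Hochberg adjustment over all genes tested and a threshold of 0.05. In simulated data with 200 of 15180 genes changed, the fit recovered 73% of log2 changes of size 1 and 2.26% of its calls were false. With equal weights 33.7% were false. The simulated noise was normal, independent from value to value and scaled by group, as the group weights assume, so the simulation favoured them. It held no deviation shared across the genes of an array. These shares therefore do not give the false share of the calls in the real data. Array number limits the precision. Values are log2 changes with SE.

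The arrays compared, the 29 gene lists and the weights were chosen with earlier results of these data known. Named genes are the 12 with the largest rise and the 12 with the largest fall whose arrays did not overlap, a panel of germ cell genes, up to 4 called members of each list (or 2 where none passed) and the 10 with the smallest p in the sex difference. Genes outside this rule (Stag3, Smad7, Dppa5a, Tcl1, Aurka, Mcm6, Ccna2, Pkm, Cbx8, Scmh1, Vbp1, Fmr1, Emd, Smc1a, Gla, Atp6ap1, Snord95, Snord104, Snord53, Snora31, Gm12238, 1700013H16Rik and Usp31, and the Y-linked markers) complete the counts given and, but for the markers, were named after their values were seen. Promoters are those of the 5 called members of the germline, early germ cell and meiotic lists with the largest change.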

Additional observations from a re-analysis of the deposited data

Results flagged for a closer look

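A test of the difference between the sexes passed for 30 of the 121 named genes tested, and 17 of these kept their call in every alternative run. Over all 15180 genes tested it passed for 400. The named genes include the 10 with the smallest p in this same test and those that changed most in females. Their share therefore does not measure how common such differences are. The values are the female change minus the male change on the log2 scale, each from 3 arrays a group, with limma adjusted p under 0.05.

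Among genes of germ cell development, Zglp1 (1.66), Rec8 (1.21) and Gata2 (1.13) had a higher change in females than in males. Tdgf1 (-2.54) and Ooep (-1.20) had a lower change in females, as did the mitotic genes Aurkb (-1.55) and Bub1b (-0.95). The difference of Ooep was lost in 6 of the 16 alternatives, among them those without E11.5 replicate 3 (-1.01) and without E12.5 replicate 1 (-0.85).

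Non-coding RNA genes also had a higher change in females, whichever way they moved in males: n-R5s136 (3.97), Rny1 (3.34), Vaultrc5 (2.86), Rmrp (2.75), Rny3 (2.71), Rnu12 (1.81) and Snora20 (1.24). The difference of Snora20 was lost in 6 of the 16 alternatives, 5 of them leave-outs (1.10 to 1.29, highest limma adjusted p = 0.13). The mean small RNA signal, which leaves out n-R5s136, Rmrp and Rnu12, was also higher on the E12.5 female arrays. It was 5.21 to 5.32 there against 4.86 to 4.87 in E12.5 males, and its part in these differences was not tested. Tmem243 (1.95) rose more in females, and Cks2 (2.11) and ND3 (1.23) fell in males but did not pass in females.

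Genes with a lower change in females, whichever way they moved in males, were Ppp2r5a (-2.62), 1110002L01Rik (-2.13), Tomm5 (-2.11), Trappc2l (-1.95), Eif3m (-1.74), Trappc4 (-1.73), Gm10874 (-1.72), Gtf3c6 (-1.71), Pcnp (-1.68), Znrd1 (-1.45), Ctsz (-1.39), Psma5 (-1.23) and Utp14a (-1.15). Ctsz lost its difference in 9 of the 16 alternatives, Pcnp in 5, Utp14a in 4 and 1110002L01Rik and Tomm5 in 3 each. Without E12.5 replicate 1 the differences of Ctsz, Pcnp and Tomm5 were -0.76, -0.97 and -1.17, and with the mean of its probe sets that of Pcnp was -0.80. The difference of Ppp2r5a, whose other probe sets fell by less in females, ranged from -2.96 to -1.38 over the 16 alternatives and kept its call. Eif3m had means of 8.29, 7.12 and 8.78 at E11.5, E12.5 and E13.5 in control females, so its lowest level was on the E12.5 arrays. A second probe set of Eif3m fell by less from E11.5 to E12.5, by -0.33 against -1.17.

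The change also differed between genotypes for Meioc, with a control minus Rnf2delta difference of -2.48 in females.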

How the results depend on the processing

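With equal weights for all arrays, 692 genes were higher and 2161 lower in control females, 397 passed in males and 22 in the genotype difference, against 309, 1235, 1115 and 4. Fitting only the 6 compared arrays gave 179 and 747, only the 12 control arrays of E11.5 and E12.5 gave 200 genes for the sex difference against 400, and quantile normalization gave 726 lower genes. Leaving out 1 array gave 131 to 271 higher and 664 to 1339 lower genes, 173 to 435 for the sex difference and 2 to 4 for the genotype difference. In the genotype difference, 2 genes were left without E11.5 replicate 1 or 2 or E12.5 replicate 3, and the sex difference fell to 173 without E12.5 replicate 1 and to 209 without E11.5 replicate 2. The causes were not tested. With the replicate number as a block the counts were 298, 1212, 380, 1241, 2339 (Rnf2delta females) and 6. Same-numbered arrays of the control females deviated with correlations of -0.08, 0.04 and -0.07, against -0.11 to 0.16 for the other pairs. With 3 arrays a group these values cannot tell whether the numbers pair the arrays. Among named genes the block changed 1 call, the sex difference of Ctsz (-1.39, limma adjusted p = 0.052). No called value changed sign in the alternatives run. Of 74 named genes called in females, 39 kept their call in every alternative and 42 without any 1 array.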
